A study of Bos taurus with 18 samples.

Results

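Gene expression was compared between the corpus (body) and the caput (head) of the epididymis of bulls of medium-low fertility. The comparison used the 3 arrays whose titles give corpus of sub-fertile taurus and the 3 whose titles give caput of sub-fertile taurus, 6 of the 18 arrays of the series, and covered all 26773 probe sets. Every difference below is corpus minus caput on the log2 scale, so a positive value is a higher signal in the corpus and a difference of 1 is a 2-fold change.

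The epididymis is a single long, coiled duct that carries sperm from the testis. Sperm leave the testis unable to fertilise and gain that ability on the way, in fluid that the lining epithelium changes from segment to segment by secreting proteins and moving ions and solutes. The caput does much of the protein secretion and is the first to receive testicular fluid, whose factors keep its most proximal stretch differentiated in the mouse. The corpus lies between the caput and the cauda (tail), where sperm are stored.

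Both groups came from sexually mature Holstein bulls, aged 51 to 71 months over the series, whose fertility was recorded as cows not returning to service within 56 days of a first insemination. The animals received no treatment, were chosen for slaughter on the milk production of their daughters, and gave epididymides that travelled on ice. The RNA was that of small frozen pieces of whole segment, with epithelium, muscle, vessels and luminal sperm together, and the labels do not say from which level of the caput a piece was cut. High fertility bulls of the same breed gave 3 caput and 3 corpus arrays, which are set beside the medium-low ones where a difference between the groups was tested. Nothing in the labels says that a replicate number marks a bull, so the p-values measure the spread between arrays, pooled over all groups of the series. In pieces of tissue, fewer cells of a type and less RNA per cell cannot be told apart. The 20 measured keratin and tight junction genes of basal and principal cells averaged 9.05 to 9.22 on the 6 arrays, and 0 of them lay below 6 on all of them.

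The 3 medium-low caput arrays did not form a close group. Replicates 1 and 2 correlated with each other at 0.981 across probe sets, but replicate 3 correlated with them at only 0.951 and 0.958. The medium-low corpus arrays correlated at 0.979 to 0.990. Against the mean of the high caput arrays, replicate 3 stood at 0.992 and replicates 1 and 2 at 0.954 and 0.957. Probe sets at least 2-fold away from that mean numbered 222 in replicate 3, 1860 in replicate 1 and 1823 in replicate 2. For 138 probe sets caput replicate 3 lay at least 4-fold below replicates 1 and 2, which were within 2-fold of each other, and for 184 it lay at least 4-fold above them. The like counts for the 6 high fertility caput and corpus arrays ran from 0 to 21. Most genes below are therefore given with each caput array, or with the difference against caput replicate 3 alone.

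**Figure D1:**
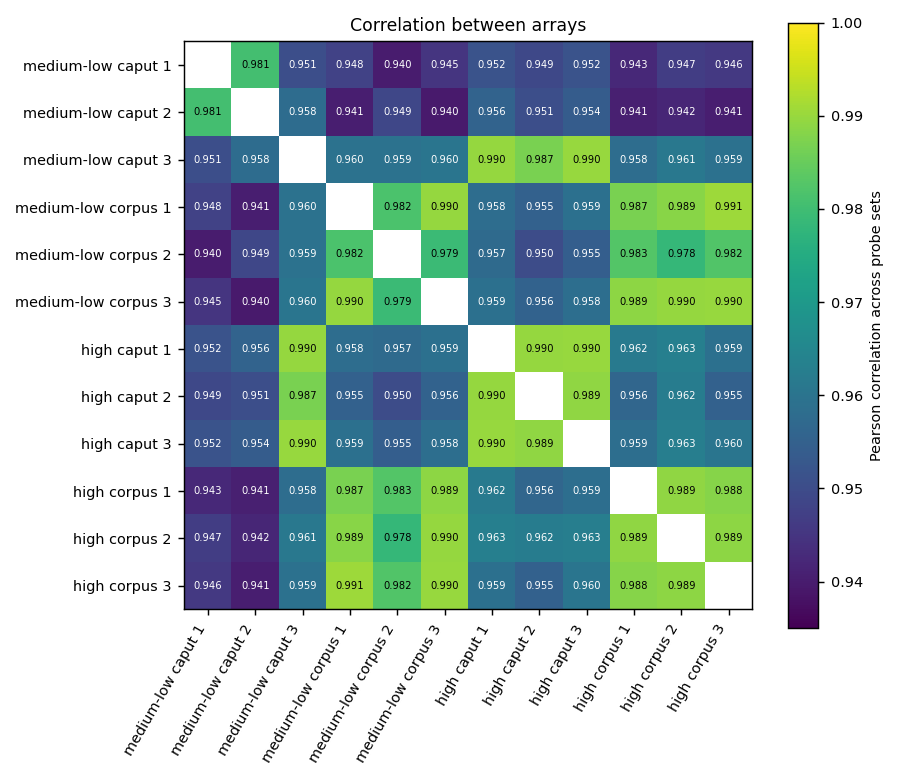
Pearson correlation across 26773 probe sets between each pair of the 12 caput and corpus arrays (colour scale and printed values, the diagonal left white). Medium-low caput 3 correlates at 0.987 to 0.990 with the high caput arrays, whereas medium-low caput 1 and 2 correlate best with each other, at 0.981.

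Signals of sperm transcripts also differed between arrays. PRM1, named after its values were seen, as were CRISP2, SLC26A4, SLC12A2, NT5E and IFIT2 below, is the protamine that packs sperm DNA. It read 10.05, 13.03 and 13.25 on caput replicates 1, 2 and 3 and 10.03, 13.07 and 10.65 on corpus replicates 1, 2 and 3. CRISP2, a protein of the sperm acrosome and tail, read 7.06, 10.21 and 10.38 in the caput and 6.79, 9.86 and 6.84 in the corpus. Caput replicates 2 and 3 and corpus replicate 2 were thus high for these transcripts, and the segments overlapped. The mean signal of the 51 measured sperm and spermatid genes was 6.05, 7.48 and 7.30 on the caput arrays and 6.01, 7.20 and 6.12 on the corpus arrays. Of them ACTL9, ADAM18, CAPZA3, IZUMO3, SPATA19 and TEKT5 lay below 6 on all 6 arrays. The 22 measured genes of spermatogonia and meiosis averaged 5.83, 6.69 and 6.5 on the caput arrays and 5.99, 6.33 and 5.92 on the corpus arrays. Whether these signals came from sperm or from other cells of the testis was not tested. Corpus replicate 2 lay at least 4-fold above both other corpus arrays for 70 probe sets, of which 39 name 1 gene and 10 are on the sperm list.

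Between the segments, 4731 probe sets passed an adjusted p of 0.05 in limma, 17.7% of those tested. Of these, 2564 (9.58% of all) were higher in the corpus and 2167 (8.09%) lower, and 1113 (4.16%) differed at least 2-fold, 533 higher (1.99%) and 580 lower (2.17%). Counted as genes, with 1 probe set each, 1876 of 18010 rose and 1869 fell, 10.4% in each direction, with a median difference of 0.0482. This 10.4% is the share to set beside each list count of the same fit below. Fits with an array left out called other totals, and their list counts are to be read beside those. Without caput replicate 3, 2855 of all 26773 probe sets were higher and 2759 lower. Without caput replicate 1 these were 1997 and 1933, and without caput replicate 2, 1605 and 1469. Without corpus replicate 1, 2 or 3, 1743, 1865 and 1985 were higher and 1550, 1538 and 1867 lower. In 8409 probe sets (31.4%) every corpus array lay on the same side of every caput array, and these held 4380 of the 4731 calls. A fit of the 6 medium-low arrays alone, without the variance of the other groups, kept 1275 of the 4731 calls (26.9%). When each caput array in turn was the only caput array, 4636 calls kept their sign against all 3, and 95 did not. For the 4380 calls without overlap the kept sign was fixed in advance, so only the other calls could turn. A fit with 1 medium-low caput array holds no spread between these arrays. Its p-values and calls, here and below, leave that spread out. The test was passed against each of the 3 arrays alone by 1058 calls, 506 higher and 552 lower. Against caput replicate 3 alone, 2841 probe sets passed, 1306 higher and 1535 lower, and 1828 of the 4731 calls were among them.

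The genes with the largest differences included a TGF-beta family ligand, secreted proteins, peroxidases, transporters and receptors. The 15 named genes with the largest rise and the 15 with the largest fall were taken among calls whose arrays did not overlap. That rule fixes that each of these 30 keeps its sign against each caput array, so the kept sign adds no support. Against caput replicate 3 alone RNASE11, CLDN10 and CA2 differed by 0.88, -2.37 and -1.29, beside 3.50, -4.17 and -3.99 with all caput arrays. No detection call came with the values, so a fold change against a low signal is not exact.

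GDF3, a TGF-beta family ligand, had the largest difference. It read 5.0, 4.76 and 4.58 on the caput arrays and 12.50, 11.53 and 11.75 on the corpus arrays, a 142-fold higher signal (difference 7.15, SE 0.211, limma adjusted p = 2.42e-11). All 3 caput arrays were low and alike, and the difference was 6.93, 7.17 and 7.34 against caput replicates 1, 2 and 3. Its mean in the cauda of the same group was 5.21, so within these bulls the signal was high in the corpus only among the 3 segments measured. Of the 25 measured TGF-beta family ligands, 5 rose and 2 fell, with a median of 0.20. Without any 1 of the 6 arrays 2 to 4 rose, 2 without corpus replicate 1, and with caput replicate 3 alone 3 rose and 1 fell. GDF11, a ligand that patterns the trunk, read 7.09, 7.36 and 6.84 in the caput and 8.50, 8.60 and 8.56 in the corpus (1.46, SE 0.173, limma adjusted p = 4.94e-05). INHBA, the subunit of activin A, read 9.71, 9.77 and 8.89 in the caput and 7.48, 7.76 and 6.91 in the corpus (-2.08, SE 0.229, limma adjusted p = 2.52e-05). TGFB1, a ligand that restrains growth and immune responses, read 9.02, 8.01 and 7.38 in the caput and 7.06, 6.92 and 6.81 in the corpus (-1.20, SE 0.286, limma adjusted p = 0.00918). Its fall was 0.76 without caput replicate 1, and against caput replicate 3 alone the difference of -0.44 did not pass (limma adjusted p = 0.204). INHA and TGFB3 did not pass, at 0.36 and 0.33.

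Sperm-coating and secreted proteins moved in both directions. CD52, a glycopeptide that epididymal epithelium passes to the sperm surface, read 7.24, 6.73 and 8.04 in the caput and 12.17, 12.22 and 12.57 in the corpus (4.98, SE 0.241, limma adjusted p = 5.90e-09). CES5A, a secreted carboxylesterase known as cauxin in cat urine, read 5.81, 5.99 and 7.83 in the caput and 13.26, 13.22 and 13.43 in the corpus (6.76, SE 0.536, limma adjusted p = 1.15e-06). PATE1, a small cysteine-rich protein of the sperm coat, read 8.06, 6.88 and 7.76 against 11.52, 11.59 and 11.64 (4.01, SE 0.451, limma adjusted p = 3.04e-05). The 3 corpus arrays lay close together for all 3 genes, and the spread was in the caput.

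In the other direction, OVCH2, a secreted protease that acts on sperm maturation in the mouse, read 12.72, 13.00 and 10.82 in the caput and 6.02, 7.18 and 5.62 in the corpus (-5.91, SE 0.478, limma adjusted p = 1.33e-06). RNASE10, a secreted member of the ribonuclease A family, read 13.25, 13.22 and 11.88 in the caput and 6.83, 8.14 and 6.19 in the corpus (-5.73, SE 0.653, limma adjusted p = 3.43e-05). LCN6, an epididymal lipocalin that carries small lipophilic molecules, read 13.97, 14.03 and 13.37 against 9.44, 9.85 and 7.67 (-4.80, SE 0.458, limma adjusted p = 6.65e-06). The caput arrays were high for all 3, with replicate 3 the lowest, and corpus replicate 2 was the highest corpus array each time. DEFB110, a beta-defensin, read 13.16, 13.14 and 13.01 in the caput and 9.68, 10.54 and 9.29 in the corpus (-3.27, SE 0.354, limma adjusted p = 2.15e-05). It was the only one of 15 measured beta-defensins that fell, and DEFB1 was the only one that rose (0.42, SE 0.125, limma adjusted p = 0.0312). DEFB1 lay below 6 on all 6 arrays, at 3.67, 3.69 and 3.80 in the caput and 4.19, 3.89 and 4.33 in the corpus, and 0 of the 15 rose without caput replicate 1 or corpus replicate 1 or 3. Without caput replicate 3, 4 of the 15 fell and 4 rose. Of 20 genes listed for caput secretion and sperm maturation, 6 rose and 4 fell, with a median of 0.0562 that lay between -0.0187 and 0.0222 under other scalings. With caput replicate 3 alone 3 rose and 4 fell, with a median of -0.257, and without it the median was 0.22.

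The glutathione peroxidases, which reduce peroxides, split by member. GPX5, the secreted form of the epididymis, read 14.06, 13.96 and 13.37 in the caput and 9.97, 10.84 and 6.39 in the corpus (-4.73, SE 0.843, limma adjusted p = 0.00135), and its spread lay in the corpus. GPX6, a close relative, read 11.34, 11.67 and 10.42 against 5.71, 6.00 and 5.8 (-5.31, SE 0.423, limma adjusted p = 1.17e-06). GPX2, the form known from gut epithelium, went the other way, at 6.06, 5.29 and 8.86 in the caput and 11.70, 11.84 and 11.80 in the corpus (5.05, SE 0.603, limma adjusted p = 5.29e-05). GPX3, the plasma form, also rose, by 2.00 (SE 0.586, limma adjusted p = 0.0286), but caput replicate 3 read 11.75 and the corpus arrays 11.37, 11.64 and 11.66, so that the segments overlapped there. GPX1 and GPX7 did not pass, at 0.46 and -0.44. The hydrogen peroxide producing dual oxidase DUOX1 and its maturation factor DUOXA1 rose by 3.99 (SE 0.511, limma adjusted p = 9.36e-05) and 3.80 (SE 0.511, limma adjusted p = 0.000148), and by 2.49 and 2.30 against caput replicate 3 alone. DUOX1 read 6.93, 6.79 and 9.11 in the caput and 11.66, 11.56 and 11.59 in the corpus. Catalase, CAT, which breaks down hydrogen peroxide, read 10.97, 11.19 and 11.34 against 10.21, 9.90 and 10.10 (-1.10, SE 0.160, limma adjusted p = 0.000286). Of 29 other antioxidant and glutathione transferase genes, CAT included, 4 rose and 3 fell, with a median of 0.00203. Both shares were near the 10.4% of all genes in each direction. Without corpus replicate 1 or 3, 2 rose, and without caput replicate 1, 5 fell. With caput replicate 3 alone 1 rose and 6 fell.

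**Figure D2:**
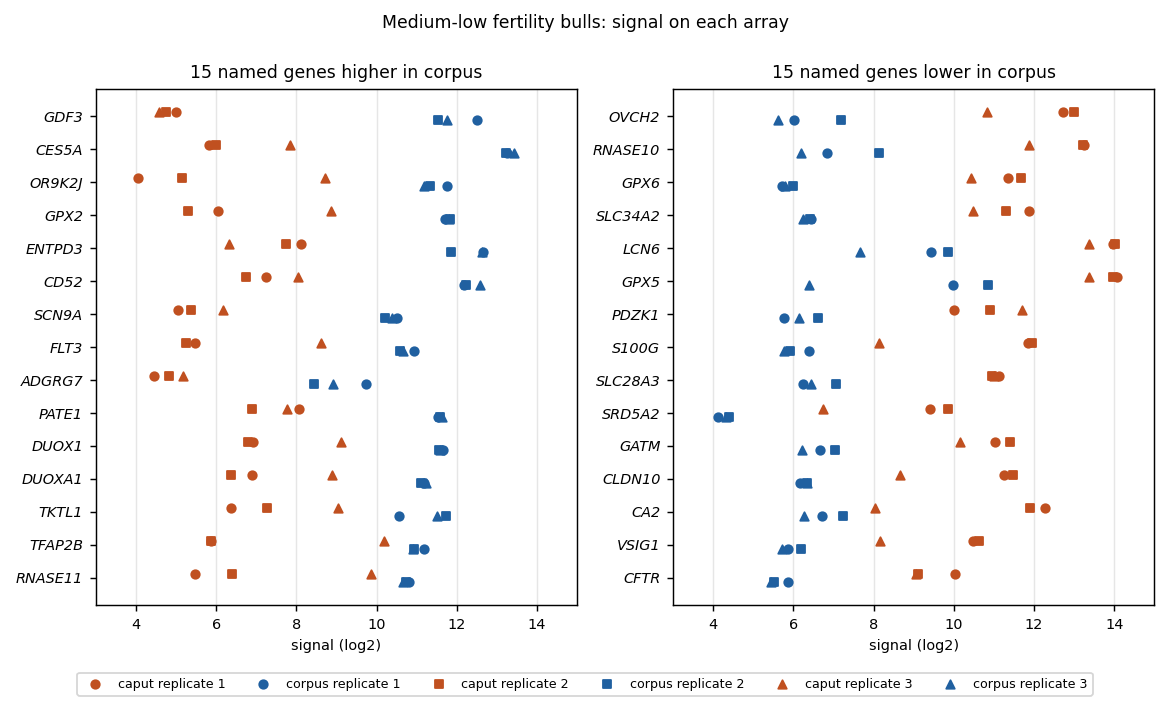
Signal (log2) on each medium-low caput array (orange) and corpus array (blue) for the 15 named genes with the largest rise and the 15 with the largest fall, with the replicate shown by the marker. The arrays of the segments do not overlap for any of the 30, as the rule requires, and caput replicate 3 (triangle) is often the caput array nearest the corpus.

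Of 23 genes that handle nucleotides and phosphate, 7 were lower and 2 higher in the corpus, and 14 did not pass. SLC28A3, a concentrative nucleoside transporter, read 11.12, 10.95 and 11.01 in the caput and 6.23, 7.06 and 6.43 in the corpus (-4.45, SE 0.219, limma adjusted p = 6.67e-09). SLC34A2, a sodium-phosphate cotransporter, read 11.88, 11.31 and 10.48 against 6.45, 6.42 and 6.23 (-4.86, SE 0.244, limma adjusted p = 8.12e-09). PDZK1, a scaffold protein of apical transporters, read 10.01, 10.91 and 11.71 against 5.77, 6.60 and 6.14 (-4.71, SE 0.314, limma adjusted p = 2.10e-07). ENTPD3, an ectonucleotidase that hydrolyses extracellular ATP, rose instead, from 8.12, 7.73 and 6.32 to 12.66, 11.86 and 12.63 (5.0, SE 0.383, limma adjusted p = 9.26e-07). NT5E, which makes adenosine from AMP at the cell surface, read 7.96, 8.22 and 7.99 against 8.99, 8.74 and 8.67 (0.74, SE 0.208, limma adjusted p = 0.0230). ENTPD1 and ENPP3 did not pass, at 1.00 and 0.60. Of the 23, 6 fell and 1 rose with caput replicate 3 alone, and 6 fell and 4 rose without it.

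Of 34 ion transport genes, 8 were lower and 4 higher in the corpus, with a median of -0.00855. The share of rises was near the 10.4% of all genes in each direction. CFTR, the chloride and bicarbonate channel mutated in cystic fibrosis, read 10.04, 9.11 and 9.06 in the caput and 5.88, 5.51 and 5.45 in the corpus (-3.79, SE 0.235, limma adjusted p = 9.02e-08). SCN9A, a voltage-gated sodium channel subunit best known from sensory neurons, read 5.04, 5.37 and 6.16 against 10.51, 10.21 and 10.39 (4.85, SE 0.492, limma adjusted p = 1.24e-05). SLC26A4, the anion exchanger pendrin, rose from 5.58, 5.30 and 5.45 to 8.10, 7.53 and 8.18 (2.49, SE 0.218, limma adjusted p = 2.99e-06). For all 3 genes caput replicate 3 stayed with the other caput arrays. KCNJ1, a potassium channel of the kidney tubule, read 10.45, 10.26 and 5.48 in the caput and 5.90, 5.79 and 5.47 in the corpus (-3.01, SE 0.855, limma adjusted p = 0.0243), so its call came from caput replicates 1 and 2. SLC12A2, a sodium, potassium and chloride cotransporter, had the same shape, at 11.15, 10.59 and 7.53 against 6.79, 7.26 and 6.92 (-2.77, SE 0.610, limma adjusted p = 0.00579). FXYD4 and SLC4A4 did not pass, at 1.16 and -0.74. Without corpus replicate 1, or with caput replicate 3 alone, 5 of the 34 fell and 2 rose.

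Among carriers of amino acids, organic ions and carnitine, 5 of 28 rose and 7 fell. SLC38A1, a neutral amino acid transporter, read 7.74, 6.89 and 7.30 in the caput and 10.06, 9.28 and 9.89 in the corpus (2.43, SE 0.243, limma adjusted p = 1.07e-05). SLC7A11, the cystine and glutamate exchanger, rose from 7.77, 7.25 and 7.07 to 9.79, 8.94 and 10.42 (2.36, SE 0.306, limma adjusted p = 0.000109). SLCO4C1, an organic anion transporter, read 7.86, 8.55 and 9.21 against 5.78, 4.77 and 5.05 (-3.34, SE 0.413, limma adjusted p = 7.24e-05). The arrays of the segments were apart for each of these. SLCO2A1, which takes up prostaglandins, read 11.28, 11.27 and 8.30 in the caput and 8.07, 8.41 and 8.41 in the corpus (-1.99, SE 0.544, limma adjusted p = 0.0204), with caput replicate 3 inside the corpus range. Without caput replicate 3, 9 of the 28 rose.

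Other genes with large differences included SRD5A2, which makes dihydrotestosterone from testosterone. It read 9.40, 9.85 and 6.74 in the caput and 4.11, 4.38 and 4.31 in the corpus (-4.40, SE 0.532, limma adjusted p = 5.91e-05). NR3C1, the glucocorticoid receptor, read 7.83, 7.54 and 7.77 against 9.21, 8.80 and 8.90 (1.26, SE 0.151, limma adjusted p = 5.39e-05). Of 21 measured steroid receptors and enzymes, 4 rose and 2 fell, and 2 rose without caput replicate 2 or corpus replicate 1. Without caput replicate 3, 6 rose and 3 fell, and with it alone the balance turned to 1 higher and 4 lower. GATM, which makes the creatine precursor guanidinoacetate, fell by 4.22 (SE 0.260, limma adjusted p = 8.52e-08), and all 3 caput arrays, at 11.03, 11.39 and 10.16, were above the corpus arrays, at 6.65, 7.05 and 6.21. The receptor tyrosine kinase FLT3 rose by 4.29, the adhesion receptor ADGRG7 by 4.22, the transketolase-like TKTL1 by 3.71 and the transcription factor TFAP2B by 3.70. Against caput replicate 3 alone the first 3 of these rose by 2.13, 3.86 and 2.23. The gene listed as the olfactory receptor OR9K2J rose by 5.44, with caput arrays at 4.06, 5.15 and 8.72 and corpus arrays at 11.75, 11.33 and 11.17. Members of large families such as this one can share probes with close copies, which the values do not resolve. The calcium-binding protein S100G fell by 4.63, the tight junction protein CLDN10 by 4.17, the carbonic anhydrase CA2 by 3.99 and the surface protein VSIG1 by 3.84, with a difference of -2.24 for VSIG1 against caput replicate 3 alone.

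For several of these genes caput replicate 3 lay much nearer the corpus than its companions did. TFAP2B read 5.88, 5.87 and 10.19 in the caput and 11.19, 10.94 and 10.90 in the corpus, so its difference was 5.13 and 5.14 against replicates 1 and 2 and 0.82 against replicate 3 (limma adjusted p = 0.0101). S100G read 11.86, 11.95 and 8.13 in the caput and 6.39, 5.91 and 5.76 in the corpus, and fell by 2.11 against replicate 3 (limma adjusted p = 0.00137). RNASE11 read 5.47, 6.38 and 9.86 against 10.81, 10.73 and 10.66, a difference of 0.88 against replicate 3 that did not pass (limma adjusted p = 0.140). CLDN10 and CA2 differed by -2.37 and -1.29 against replicate 3, with limma adjusted p of 0.185 and 0.0578.

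The 12 named genes with the largest SD among the 3 medium-low caput arrays were chosen by that spread, and their values are a description. All 12 split replicates 1 and 2 from replicate 3. LCN9, an epididymal lipocalin, read 13.80, 13.54 and 6.31 in the caput and 8.21, 7.94 and 6.57 in the corpus, where the high caput mean was 6.36. QPCT, which forms the N-terminal pyroglutamate of peptides, read 4.17, 5.30 and 11.56 in the caput and 10.83, 10.96 and 11.58 in the corpus, where the high caput mean was 11.59. DEFB122A, a beta-defensin, read 4.53, 3.99 and 12.33 in the caput and 6.68, 6.98 and 5.69 in the corpus. The corpus was therefore above caput replicates 1 and 2 and far below replicate 3. POSTN, a matrix protein of fibroblasts, read 12.91, 13.37 and 6.38 in the caput and 7.41, 9.42 and 6.07 in the corpus. MTNR1A, a melatonin receptor, read 11.70, 11.75 and 5.25 in the caput and 8.98, 8.38 and 9.77 in the corpus, between the caput values. AOX4, GCNT4, TEDDM1, CALB1 and CRYBA4 read 10.82 or more on caput replicates 1 and 2 and 7.01 or less on replicate 3, whose values lay near those of the corpus. TMEM150C and DEFB124 split the same way.

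**Figure D3:**
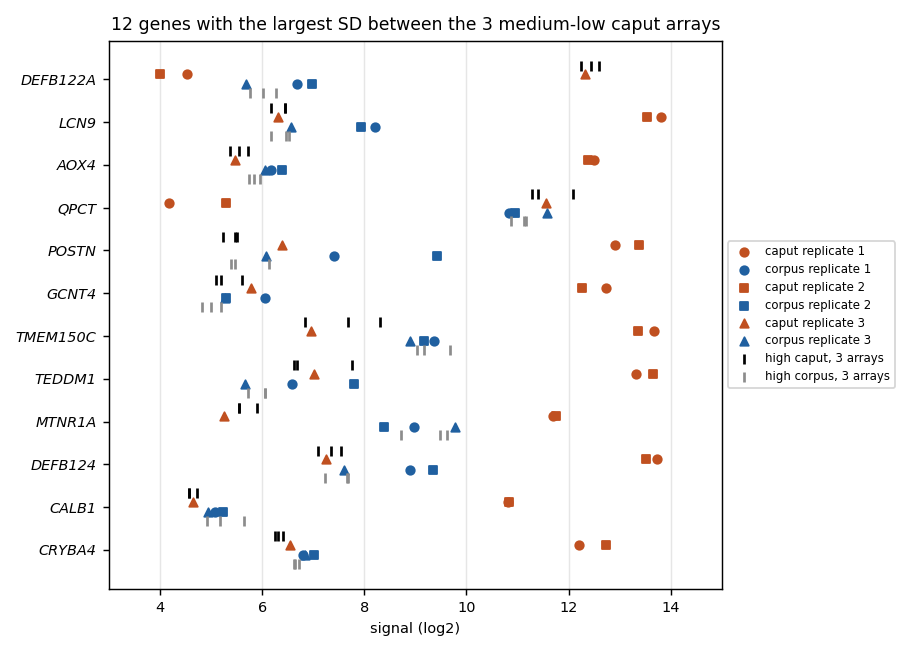
Signal (log2) on each medium-low caput (orange) and corpus (blue) array, with the 3 high caput (black ticks) and 3 high corpus (grey ticks) arrays, for the 12 named genes with the largest SD between the medium-low caput arrays. Caput replicate 3 (orange triangle) lies within 2-fold of the high caput mean for each gene, and replicates 1 and 2 lie apart, for LCN9 at 13.80 and 13.54 against 6.31.

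Over the 138 probe sets at least 4-fold lower on caput replicate 3 than on replicates 1 and 2, the corpus mean was nearer replicate 3 in 121, and 90 passed the comparison of the segments. Over the 184 at least 4-fold higher on replicate 3, the corpus mean was nearer replicate 3 in 96 and nearer replicates 1 and 2 in 88, and 53 passed. The high caput mean was within 2-fold of replicate 3 in 131 of the 138 and 166 of the 184. Genes of the lumicrine route, by which testicular factors act on the first stretch of the duct, were listed with those of the feedback on the kinase ERK below it. Their mean moved with this split, but not every member did. The mean signal of the 22 such genes was 9.37, 9.14 and 8.26 on the caput arrays and 8.40, 8.43 and 8.32 on the corpus arrays. ETV4, a transcription factor below ERK, read 11.34, 10.65 and 6.30 in the caput and 6.88, 6.58 and 6.85 in the corpus (-2.66, SE 0.832, limma adjusted p = 0.0386). DUSP5, a phosphatase of ERK, fell by 1.40 (SE 0.288, limma adjusted p = 0.00367), and its caput arrays read 9.92, 9.69 and 9.01 against 7.85, 8.59 and 7.98. Its difference was -0.88 against caput replicate 3 alone. GGT1, also on the list, went the other way, at 8.01, 8.75 and 9.84 in the caput and 9.89, 10.09 and 10.04 in the corpus (1.14, SE 0.294, limma adjusted p = 0.0147). Against caput replicate 3 alone GGT1 differed by 0.17. ETV5, a relative of ETV4, read 9.51, 9.36 and 6.70 in the caput and 9.49, 9.16 and 9.69 in the corpus, and did not pass (0.93, limma adjusted p = 0.229). Of the 22 genes, 4 fell and 2 rose with all caput arrays. Without caput replicate 3, 10 fell and 2 rose, in a fit that called 2759 of all probe sets lower and 2855 higher. The median difference of the 22 was -0.236 with all caput arrays and 0.25 with replicate 3 alone. Their part in the other differences was not tested.

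Gene lists were described by how many measured members passed, beside the 10.4% of all genes in each direction. The list with the largest share of rises was that of interferon-stimulated genes, which cells switch on in response to interferons, the signals of antiviral defence. Of its 26 measured members 18 rose and 0 fell, and the median difference was 0.656. MX1, a GTPase that restricts viruses, read 7.32, 6.43 and 6.83 in the caput and 9.94, 9.80 and 9.53 in the corpus (2.90, SE 0.292, limma adjusted p = 1.15e-05). MX2, its relative, read 7.61, 6.75 and 8.55 against 10.40, 10.33 and 10.16 (2.67, SE 0.332, limma adjusted p = 7.54e-05). OAS1Y, which makes the 2-5A messenger that activates RNase L, read 7.92, 7.68 and 8.14 against 10.48, 10.98 and 10.19 (2.64, SE 0.413, limma adjusted p = 0.000511). IFI44, an interferon-induced protein, read 6.25, 6.35 and 7.63 against 9.07, 9.10 and 8.80 (2.25, SE 0.390, limma adjusted p = 0.00112). All corpus arrays lay above all caput arrays for these 4, and IFI44 differed by 1.36 against caput replicate 3 alone. OAS2 and XAF1 did not pass, at 0.66 and 0.46, and IFIT2 lay below 6 on all 6 arrays.

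The rise of these genes did not rest on a single array, but its count depended on the caput arrays used. The mean over the 26 genes was 7.38, 7.12 and 7.50 on the caput arrays and 8.22, 8.36 and 8.14 on the corpus arrays, without overlap. Without any 1 of the 6 arrays, 13 to 17 rose and at most 1 fell, under other scalings 14 to 16 rose and at most 1 fell, and with caput replicate 3 alone 8 rose and 1 fell, with a median of 0.503. In high fertility bulls the means were 7.48 in the caput and 7.72 in the corpus, 3 members rose and 1 fell, and the median was 0.11. The high corpus arrays were not alike. With each gene centred on its mean over all 18 arrays, the list averaged 0.401, -0.0912 and -0.0693 on high corpus replicates 1, 2 and 3. On high caput replicates 1, 2 and 3 it averaged -0.198, -0.211 and -0.0508. The difference between the bull groups in this comparison passed the test of that difference for 0 of the 26. Few marker genes of immune cells passed beside them. Of 25 T and natural killer cell genes 0 rose and 1 fell, and of 23 genes of macrophages and antigen presentation 0 rose and 1 fell, with 4 lower without caput replicate 3. Of 13 B and plasma cell genes 1 rose and 0 fell. The mean over the T and natural killer cell genes was 6.35 to 6.86 in the caput and 6.54 to 6.82 in the corpus, with CD28 at 9.06, 6.62 and 5.08 in the caput. For macrophages it was 8.16 to 8.34 in the caput and 8.08 to 8.15 in the corpus. The part of immune cells in the interferon-stimulated genes was not tested.

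**Figure D4:**
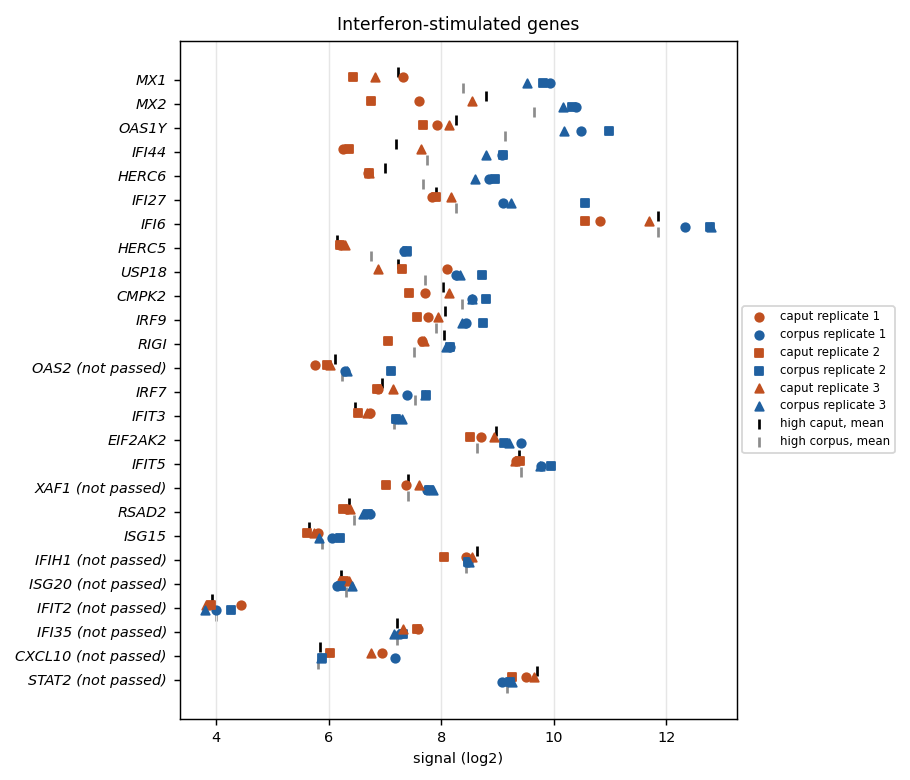
Signal (log2) on each medium-low caput (orange) and corpus (blue) array for the 26 measured interferon-stimulated genes, ordered by difference, with the means of high caput (black tick) and high corpus (grey tick). Of the 26, 18 passed and all of these were higher in the corpus, and the 8 that did not pass are marked.

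Cholesterol and fatty acid synthesis had the largest share of falls among the 39 lists. Of 23 measured genes, 11 fell and 1 rose, with a median of -0.446. SCD, which desaturates fatty acids, read 11.43, 11.87 and 9.39 in the caput and 7.55, 8.19 and 7.61 in the corpus (-3.11, SE 0.542, limma adjusted p = 0.00113). Its difference was -1.61 against caput replicate 3 alone. The sterol pathway enzymes TM7SF2, at 8.31, 8.22 and 7.95 against 7.32, 7.20 and 7.17, and LSS, at 8.46, 8.50 and 8.31 against 7.69, 7.28 and 7.59, fell by 0.93 (limma adjusted p = 0.000231) and 0.90 (limma adjusted p = 0.000516). Both had caput arrays that were close together and above the corpus. ACLY, which supplies acetyl-CoA to the pathway, was the exception, at 10.73, 10.55 and 10.07 against 11.62, 11.36 and 11.74 (1.12, SE 0.201, limma adjusted p = 0.00139). PMVK and MSMO1 did not pass, at 0.58 and -0.73. Against caput replicate 3 alone, 5 fell and 1 rose, and without corpus replicate 1, 7 fell. In high fertility bulls 10 fell and 2 rose, with a median of -0.336.

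Nuclear genes of the respiratory chain, which makes most ATP in mitochondria, mostly did not pass. Of 47 measured, 13 fell, 3 rose and 31 did not pass, with a median of -0.164. NDUFS7, a complex I subunit, read 9.01, 8.93 and 8.63 in the caput and 8.14, 7.88 and 8.27 in the corpus (-0.76, SE 0.117, limma adjusted p = 0.000470). COX8A, a complex IV subunit, rose from 11.32, 11.29 and 11.37 to 12.23, 12.09 and 12.30 (0.88, SE 0.0969, limma adjusted p = 2.51e-05), and neither gene's segments overlapped. NDUFB1 and COX7C did not pass, at -0.31 and -0.33. With caput replicate 3 alone 7 fell and 1 rose, and 7 fell without corpus replicate 2. Without caput replicate 1 or 2, 6 of the 47 fell. Those fits called 1933 and 1469 of all 26773 probe sets lower, against 2167 in the reported fit. Of 34 endoplasmic reticulum genes for folding and exporting secreted proteins, 6 fell and 3 rose, and 5 rose without caput replicate 3. SEC61A1, the pore of the translocon, fell by 0.90 (SE 0.133, limma adjusted p = 0.000334), from 11.60, 11.55 and 11.16 to 10.56, 10.37 and 10.70, whereas the chaperone ERP29 rose by 1.19 (SE 0.186, limma adjusted p = 0.000511), or by 0.57 against caput replicate 3 alone. SDF2L1 and PDIA4 did not pass, at 0.51 and 0.49. Of 26 genes of glycolysis and the hypoxia response, 6 rose and 3 fell, and 1 fell without caput replicate 2 or corpus replicate 1. NDRG1, a stress-responsive gene, read 11.48, 11.97 and 10.87 against 8.60, 9.24 and 8.30 (-2.72, SE 0.272, limma adjusted p = 1.07e-05). The glycolytic enzyme GPI rose from 10.25, 10.48 and 10.73 to 11.49, 11.31 and 11.41 (0.92, SE 0.124, limma adjusted p = 0.000156).

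Blood and lymph vessel genes were higher in the corpus where they passed. Of 23 endothelial genes 7 rose and 0 fell, with a median of 0.294, and in high fertility bulls 8 rose and 0 fell. KDR, the main receptor for VEGF, read 7.39, 6.99 and 7.49 in the caput and 8.92, 8.81 and 8.70 in the corpus (1.52, SE 0.171, limma adjusted p = 3.02e-05). The mean over the 23 was 7.26 to 7.47 in the caput and 7.64 to 7.89 in the corpus, and 1 gene rose with caput replicate 3 alone, and 4 rose without any 1 of caput replicates 1 and 2 and corpus replicates 1 and 2. LYVE1 and TIE1 did not pass, at 0.78 and 0.45. Of 27 WNT regulators 5 rose and 0 fell, among them the R-spondin receptor LGR4 (0.98, SE 0.149, limma adjusted p = 0.000393), which rose by 0.55 against caput replicate 3 alone. Of the 27, 2 or 3 rose without caput replicate 1 or 2 or corpus replicate 1 or 2, 2 or 3 rose and at most 1 fell under other scalings, and 1 rose with caput replicate 3 alone. Of 20 keratin and junction genes 5 rose and 2 fell (3 rose without caput replicate 3 or corpus replicate 2 or 3), among them the claudins CLDN4 and CLDN2 of tight junctions. CLDN4 read 8.30, 7.58 and 9.97 in the caput and 10.94, 10.56 and 11.28 in the corpus (2.31, SE 0.432, limma adjusted p = 0.00189), and its difference of 0.96 against caput replicate 3 alone did not pass (limma adjusted p = 0.0946). CLDN2 fell from 8.34, 9.40 and 8.61 to 6.52, 6.08 and 6.33 (-2.47, SE 0.302, limma adjusted p = 6.53e-05). Few smooth muscle and fibroblast genes passed, with 0 of 23 higher and 1 lower, and 1 of 31 higher and 0 lower, with 4 of the 31 higher without corpus replicate 3.

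**Figure D5:**
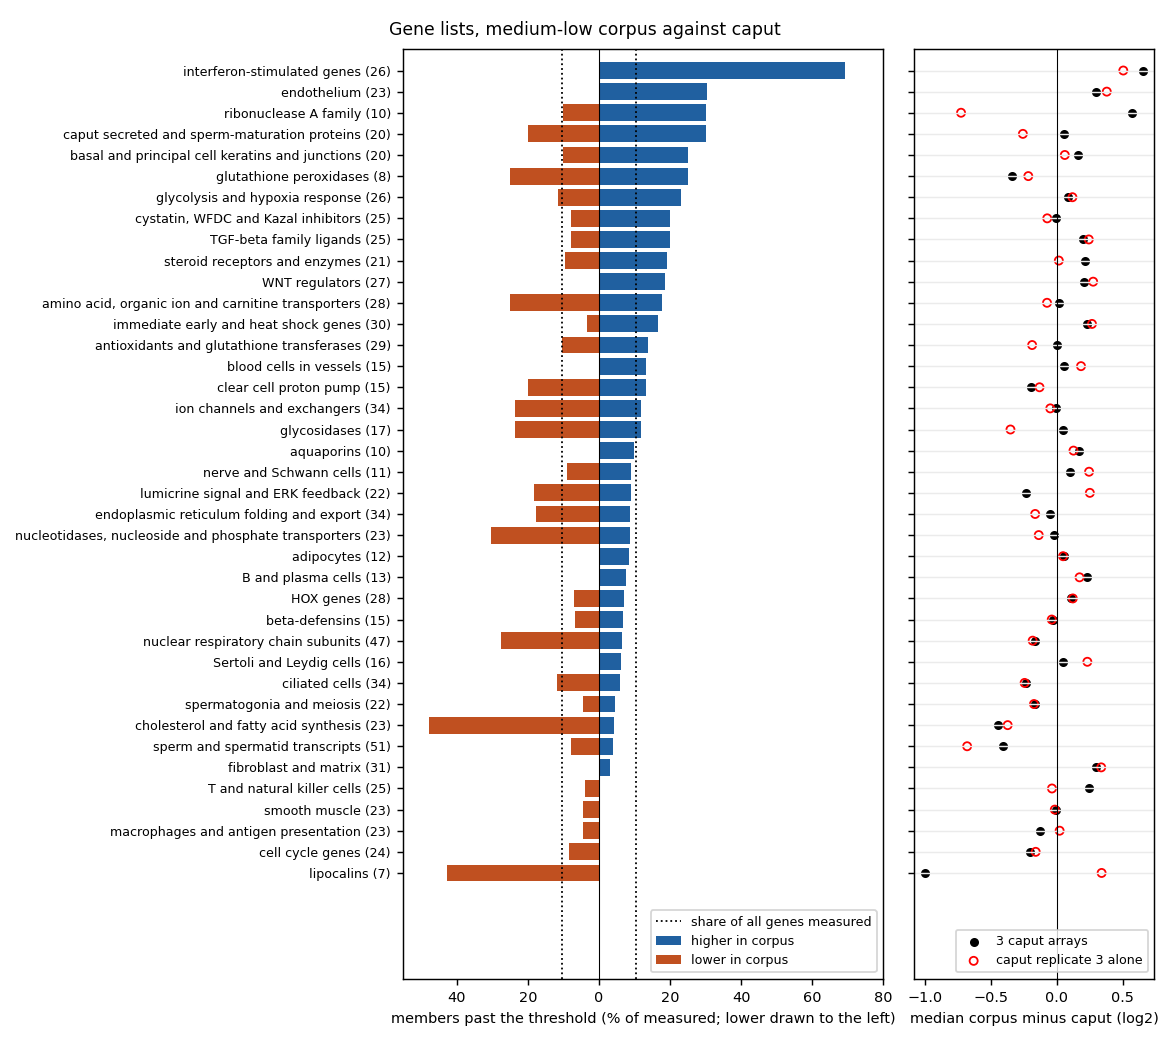
For each of the 39 gene lists (measured members in parentheses), the percentage of members higher (blue) or lower (orange, drawn to the left) in the corpus at a limma adjusted p of 0.05, with dotted lines at the 10.4% of all genes in each direction, and the median difference (log2) with 3 caput arrays (black) or with caput replicate 3 alone (red). Interferon-stimulated genes stand at 18 of 26 higher, and the medians that change sign with caput replicate 3 alone are those of the lipocalins, ribonucleases, lumicrine genes, glycosidases, caput secreted proteins, antioxidants, amino acid carriers, T and natural killer cells and macrophages.

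In the lipocalins and the ribonuclease A family the sign of the median changed with the caput arrays used. Of 7 lipocalins, 3 fell and 0 rose (1 fell without caput replicate 2 or corpus replicate 2), with a median of -0.995, which became 0.339 with caput replicate 3 alone. Of 10 ribonuclease A family genes, 3 rose and 1 fell, with a median of 0.567, which became -0.725, and 6 rose without caput replicate 3. RNASE12 read 8.87, 8.99 and 12.48 in the caput and 12.78, 12.59 and 12.75 in the corpus (2.6, SE 0.629, limma adjusted p = 0.0103). Of 25 cystatin, WFDC and Kazal protease inhibitors, 5 rose and 2 fell, 8 rose without caput replicate 3, and 2 rose and 0 fell with it alone. WFDC8 read 8.22, 7.40 and 13.23 in the caput and 13.08, 13.05 and 12.92 in the corpus (3.40, SE 0.963, limma adjusted p = 0.0241). CST11, an antibacterial cystatin of the epididymis, read 13.81, 13.75 and 8.36 against 9.15, 9.17 and 6.15 (-3.81, SE 1.10, limma adjusted p = 0.0261). Caput replicate 3 was near the corpus arrays for RNASE12, WFDC8 and CST11.

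The count of sperm transcripts depended on which arrays entered. Of the 51 measured, 4 fell and 2 rose, with a median of -0.409. ZPBP, an acrosomal protein, read 8.95, 8.97 and 8.23 in the caput and 7.29, 7.64 and 7.14 in the corpus (-1.36, SE 0.214, limma adjusted p = 0.000523). GSG1, a gene of round spermatids, read 6.17, 9.24 and 9.47 against 5.35, 8.93 and 5.95 and did not pass (-1.55, limma adjusted p = 0.220). Without caput replicate 1, which was low for these genes, 27 fell and 0 rose. Without corpus replicate 2, which was high, 8 fell and 1 rose, and without any 1 of the other arrays 1 or 2 fell. In the ciliated cell list, whose tail genes sperm also express, 4 of 34 fell and 2 rose, and 7 fell without caput replicate 1 and 8 without corpus replicate 2.

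The like comparison in high fertility bulls called 5240 probe sets (19.6% of those tested), 2780 higher (10.4%) and 2460 lower (9.19%). Of them 2756 were also called in the medium-low bulls in the same direction, which is 58.3% of the medium-low calls and 52.6% of the high calls. The gene DUT, chosen after its values were seen, was the only call in both with opposite directions, at -0.26 in medium-low and 0.27 in high bulls. Passing in one group and not the other does not show a difference, so the difference of the differences was tested for all probe sets. It was passed by 1 probe set, 0.00374% of those tested, and 2293 (8.56%) had an unadjusted p under 0.05. That probe set, which carries no gene symbol here, is described in the closing section. GDF3 rose by 7.15 in medium-low and 7.26 in high bulls, CFTR fell by 3.79 and 3.84, and GPX6 by 5.31 and 5.32. For CLDN10, -4.17 in medium-low and -0.28 in high bulls, and S100G, -4.63 and -0.93, the difference between the groups did not pass (limma adjusted p = 0.559 for each). Without caput replicate 3, 2359 probe sets passed this test. That array was the medium-low caput array nearest the high caput arrays, so leaving it out widens the gap between the bull groups by that choice. The count is a description, and a part of fertility in it was not tested.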

How the data were processed

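Total RNA of epididymis pieces was labelled from 200 ng per sample and hybridised to bovine gene arrays. The deposited values are log2 signals, 1 per probe set and array, made by the authors with RMA, per the submitters' processing notes, which also list Affymetrix Expression Console and Partek 6.5 without a role. RMA corrects background, equalises the distributions of the arrays and summarises the probes of a set, so that a shift common to most genes would be removed. No depth applies to arrays, and the number of arrays limits the precision. Of 26773 probe sets, 18457 name 1 gene, 688 several and 7628 none, and 297 are identical to another on all arrays. Column medians lay between 7.26 and 7.39.

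The 18 arrays were fitted together, 1 mean for each of 6 groups (R 4.3.3, limma 3.58.1). The difference of the medium-low corpus and caput means was tested with moderated variances and Benjamini-Hochberg adjustment over all probe sets, threshold 0.05. SE are the model's. Since all 18 arrays, those of the cauda included, were in the same fit, the variance is shared by the 6 groups. The groups did not spread alike. TFAP2B had an SD of 2.495 in medium-low caput and 0.1553 in medium-low corpus, and S100G 2.183 and 0.3289. For genes that split the medium-low caput arrays in this way, the shared variance understates their spread, and SE and p-values are too small. With the 12 caput and corpus arrays alone, 3868 probe sets passed. Each listed gene took the probe set with its highest mean signal. The rule for named genes took probe sets of 1 gene, without provisional symbols: the 15 largest rises and falls among calls without overlap, the 12 largest caput SDs, up to 4 passing and 2 other members of each list, and up to 10 passing genes per direction for the difference between bull groups, which gave none. Genes named outside it are said to be so, apart from members listed only as dim. The members, lists and rules were chosen with earlier results of these data known. Settings tried beside this left out dim probe sets or arrays, changed the scaling, the prior, the threshold or the samples in the fit, weighted the arrays, kept 1 probe set per gene or took the replicate number as a block, with statmod 1.5.0. The fit was tested on simulated data.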

Additional observations from a re-analysis of the deposited data

Results flagged for a closer look

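The number of probe sets whose corpus minus caput difference itself differed between medium-low and high bulls was 1 of 26773, from limma's test of that difference. It was probe set 12708857, which carries no gene symbol here. It read 5.49, 5.92 and 6.11 on the medium-low caput arrays, 5.57, 5.07 and 5.48 on the medium-low corpus arrays, 9.0 ± 0.155 (SD, n = 3) in high caput and 4.95 ± 0.0926 (SD, n = 3) in high corpus. The difference of the differences was 3.58 (log2, SE 0.229, limma adjusted p = 3.38e-06). All 3 medium-low caput arrays, replicate 3 included, were low for it, and high caput alone was high. The next smallest p among probe sets with 1 gene name belonged to LOC617709 (limma adjusted p = 0.0509) and TMC2 (limma adjusted p = 0.448), both named after their values were seen.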

How the results depend on the processing

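All 4731 calls kept their sign under other scalings, weights, priors, blocks and subsets in which no caput pair was left out. A change of prior leaves the difference as it is, and leaving out arrays cannot turn a call without overlap. With caput replicate 3 alone 94 turned and with replicate 1 alone 1. The total was 4496 with array medians subtracted (1694 higher, 37.7%, against 54.2% in the reported fit; median shift -0.075), 4610 with cyclic loess (45.3% higher), 1309 with the 6 medium-low arrays alone (687 higher, 622 lower), 1251 at an unadjusted p under 0.05 with 2-fold (575, 676, 46.0% higher) and 1113 at the adjusted p with 2-fold (533, 580, 47.9%). With caput replicate 3 alone it was 2841 (1306 higher, 46.0%); with replicates 1 or 2 alone, settings chosen after the data were seen, 46.1% and 47.7% were higher. Without 1 medium-low array the total was 3074 (no caput replicate 2) to 5614, with 1605 to 2855 higher, 1469 to 2759 lower and 50.8% to 54.8% higher. Leaving out a high array, also chosen then, gave 4435 to 4592.

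The difference between bull groups passed for 3 probe sets (2 more positive in medium-low, 1 more negative) without dim probe sets, with medians subtracted, quantile normalization or cyclic loess, and without high caput replicate 1. It passed for 0 genes (0 positive) with 1 probe set per gene, for 1893 (1001, 892) with array weights, which gave caput replicate 3 a weight of 0.246, for 627 (351, 276) at an unadjusted p with 2-fold, for 2 (1 negative) with caput replicate 3 alone, and for 2096 (984, 1112) and 1626 (848, 778) with replicates 1 or 2 alone. Without 1 array of the 12 it passed for 1 to 2359 (1 to 1223 positive, 0 to 1136 negative), the highest without caput replicate 3.

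Whether the replicate numbers pair the samples is not settled: no label says so, deviations of same-numbered caput and corpus arrays correlated at 0.237, 0.352 and 0.0706, the first 2 being the best for those corpus arrays, and corpus replicate 3 correlated better with caput replicate 1, at 0.092. The replicate block gave 5722 calls (fixed) or 5933 (random, 3 between bull groups, 2 positive and 1 negative), and with the 6 medium-low arrays alone 500 (266, 234).

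With caput replicate 3 alone, of the named genes that passed there or with all caput arrays, these turned: AOX4 0.74, QPCT -0.43, TMEM150C 2.18, MTNR1A 3.79, CALB1 0.44, CRYBA4 0.34, LCN15 0.35, ANG -0.87, GPX3 -0.19, WFDC8 -0.21, SERPINF1 0.048, WFDC2 -0.23, ETV4 0.47, KCNJ1 0.23, GLB1 -0.80, GUSB -2.28, SLC22A5 -0.90 and LPL -1.07. Genes of the text that passed in neither also turned: LCN9 1.26, POSTN 1.25, DEFB124 1.36, ENTPD1 -0.27, ENPP3 -0.14, GPX1 -0.045, INHA -0.24 and SDF2L1 -0.42. DEFB122A, -0.50 in the reported fit, was 1.92 and 2.46 with replicates 1 or 2 alone and -1.98 to 2.19 without 1 caput or corpus array, the highest without caput replicate 3. Of the 30 genes with the largest differences, RNASE11, CLDN10 and CA2 lost their call with caput replicate 3 alone. TFAP2B, RNASE11, GPX5, S100G and CA2 lost it in the fit of the 6 medium-low arrays alone. OR9K2J, GPX2, FLT3, DUOXA1, SRD5A2 and CLDN10 lost it there with the replicate block. List counts also shrank in the 6-array fit without the block, which called 687 probe sets higher and 622 lower. Interferon-stimulated genes had 9 higher and 0 lower, and cholesterol and fatty acid synthesis 1 and 3. The respiratory chain had 1 and 1, and WNT regulators 0 and 0. Causes were not tested. Signals near background compress folds, and no detection call was used.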
